A study of Mus musculus with 12 samples.

Results

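The endothelial and angiogenic genes are 34 listed genes that mark blood vessel cells or act in their growth, out of 18193 genes named on the arrays and 15493 tested. The members were listed by name, and each was represented by 1 probe set, the one with the highest mean over all 12 arrays. All 34 were tested, and all 34 lay above the limit for dim probe sets (a log2 level of 3.32) on every array, including the defining endothelial markers Pecam1, Cdh5, Kdr and Tek. The members were grouped by role into 3 VEGF receptors (Kdr, Flt1, Flt4), 4 genes of the angiopoietin and Tie system (Tek, Tie1, Angpt2, Ptprb), the apelin pair (Apln, Aplnr) and 2 tip cell genes (Dll4, Esm1). The others are 11 junction and surface genes (Pecam1, Cdh5, Esam, Cldn5, Icam2, Cd34, Emcn, Eng, Mmrn2, Clec14a, Robo4), 8 genes of vessel function (Plvap, Gpihbp1, Nos3, Vwf, Ramp2, S1pr1, Rasip1, Egfl7) and 4 transcription factors (Erg, Sox7, Sox17, Sox18).

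Endothelial cells line blood vessels and are joined by VE-cadherin, the product of Cdh5. Tumours recruit vessels through ligands such as VEGF-A, which bind receptors on these cells. Leading tip cells sprout under VEGF and restrain their neighbours through the Notch ligand Dll4, angiopoietins act through Tie2 (Tek) on vessel stability, and apelin acts through its receptor Aplnr on sprouting vessels.

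The samples were whole tumours grown under the skin of the right flank of female 129sv/ev mice from 344SQ, a cell line of mouse lung adenocarcinoma. The 4 groups were tumours of the anti-PD-1-resistant derivative given anti-PD-1 (Res+PD1), resistant tumours given control IgG (Res+IgG), parental tumours given anti-PD-1 (Sen+PD1) and parental tumours given control IgG (Sen+IgG). Anti-PD-1 blocks an inhibitory receptor of T cells. After inoculation, mice were dosed with either antibody (10 mg/kg) on day 4 and day 7, and tumours were taken on day 11. The labels name a single resistant derivative, so resistance and other properties of that derivative cannot be told apart. Each group had 5 mice and 3 arrays. The labels do not tie mice to arrays, so p-values reflect the spread among arrays alone, which may be technical in part, and precision is limited by the 3 arrays of a group. In RNA of whole tumours, fewer endothelial cells and less RNA of a gene per endothelial cell cannot be told apart.

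Values are log2 expression levels, and differences are in log2 units with the standard error (SE) and adjusted p of limma over the 15493 genes. A gene was called where that p was under 0.05. Counts of calls in fits without 1 array include both directions and are given without the share of all genes called there. Parental IgG array 1 (Sen+IgG_1) and parental anti-PD-1 array 3 (Sen+PD1_3) stood apart from the other 10 arrays over all genes, so results are given with and without these 2. They also lay at the ends of the scale for most members. Sen+IgG_1 was the lowest of 12 arrays for 25 of 34 members, against 11.5% of all genes. Sen+PD1_3 was the highest for 19 members, against 16.9% of all genes, and Res+IgG_3 for 10, against 6.24%. The mean over the 34 members was 5.93, 6.21 and 5.86 in Res+PD1, 6.15, 6.18 and 6.64 in Res+IgG, 5.90, 6.03 and 6.78 in Sen+PD1 and 5.41, 5.77 and 5.77 in Sen+IgG. All 3 Sen+IgG arrays therefore had a lower member mean than each of the other 9 arrays. Signals of RNA quality also differed between the lines: the 3' minus 5' log2 difference of the Gapdh control probe sets was -0.03 to 0.09 in resistant and 0.14 to 0.38 in parental arrays, and that of actin was 0.33 to 0.55 in resistant and 0.58 to 0.85 in parental arrays. The part of this difference in the results below was not tested.

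**Figure D1:**
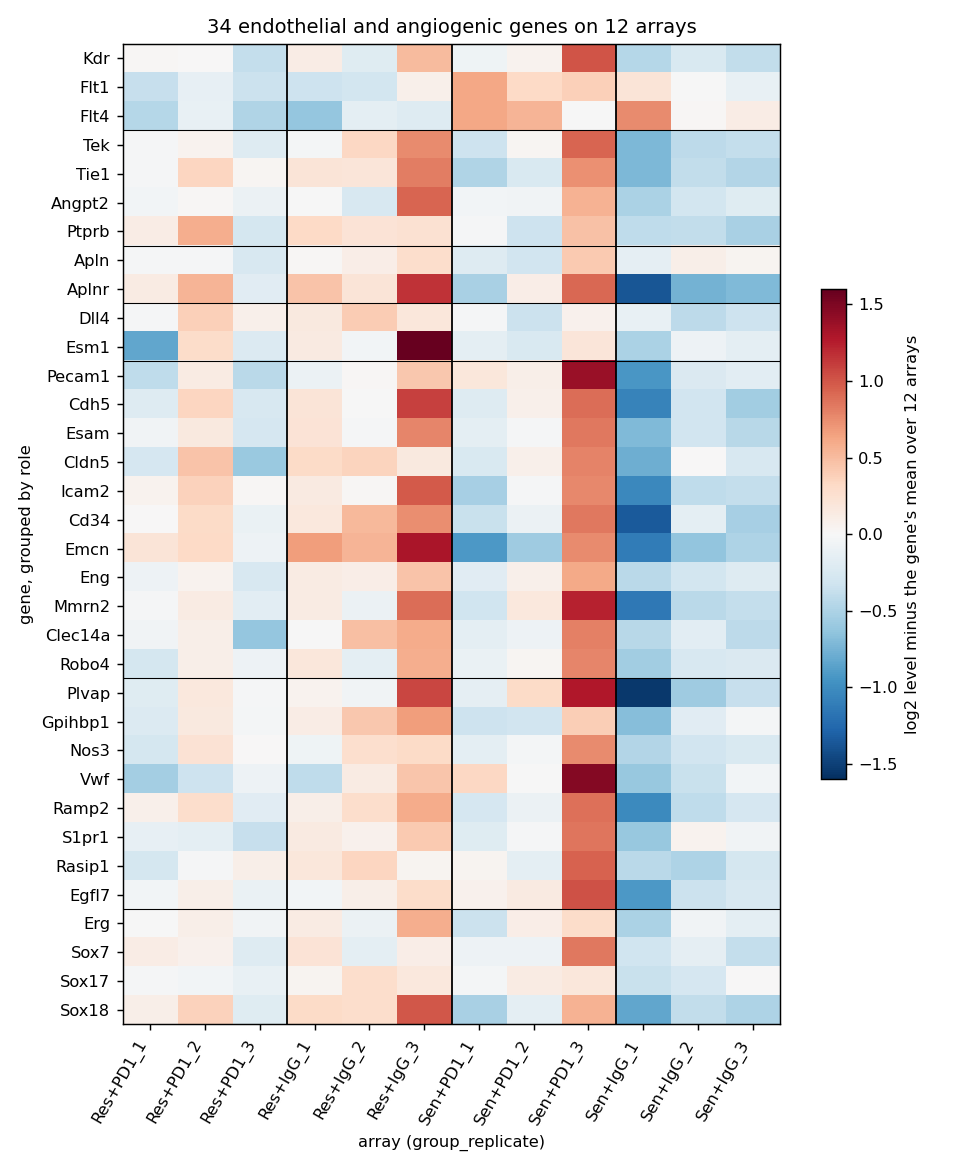
Level of each of the 34 genes on each of the 12 arrays, as the log2 level minus the gene's mean over 12 arrays (red above, blue below); columns are arrays in 4 groups of 3, and rows are genes grouped by role with thin lines between roles. Most genes are blue on Sen+IgG_1 (median deviation -0.61) and red on Sen+PD1_3 (0.79) and Res+IgG_3 (0.58), while Flt1 and Flt4 are red in most parental columns.

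Averaged over both antibodies, 4 members were higher in resistant tumours and 2 were lower. The higher ones were Emcn (0.99, SE 0.26, adjusted p = 0.0116), Aplnr (0.77, SE 0.25, adjusted p = 0.0322), Sox18 (0.61, SE 0.19, adjusted p = 0.0274) and Dll4 (0.40, SE 0.10, adjusted p = 0.00874). The lower ones were the VEGF receptors Flt4 (-0.68, SE 0.16, adjusted p = 0.00592) and Flt1 (-0.47, SE 0.09, adjusted p = 0.00282). Of all genes, 25.2% were called higher and 15% lower in this comparison, so the members' shares of 11.8% and 5.88% lay below the background. Emcn, Dll4, Flt1 and Flt4 kept their call without any 1 array, while Aplnr and Sox18 each lost it in 6 of 12 such fits, with adjusted p up to 0.0748 and 0.0652. Without both arrays that stand apart, 12 members were called higher, against 26.2% of all genes, and the same 2 receptors were called lower, against 15.9%. Leaving out Sen+PD1_3 alone gave 16 calls, higher and lower together, in a fit whose share of all genes called is not given here.

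The promoter windows of the 4 members with the steadiest calls are shown to compare genes that moved in opposite directions. Each window runs 5′ to 3′ on the gene's strand over 250 bases before and 50 after the RefSeq start in GRCm38.p6, at chr3:137340828-137341127 (plus strand) for Emcn, chr2:119325534-119325833 (plus strand) for Dll4, chr5:147725962-147726261 (minus strand) for Flt1 and chr11:49609429-49609728 (plus strand) for Flt4. Capitals mark AGGAAG or its reverse complement CTTCCT, a longer form of the GGAA core bound by ETS factors, the family of the member Erg.
Emcn: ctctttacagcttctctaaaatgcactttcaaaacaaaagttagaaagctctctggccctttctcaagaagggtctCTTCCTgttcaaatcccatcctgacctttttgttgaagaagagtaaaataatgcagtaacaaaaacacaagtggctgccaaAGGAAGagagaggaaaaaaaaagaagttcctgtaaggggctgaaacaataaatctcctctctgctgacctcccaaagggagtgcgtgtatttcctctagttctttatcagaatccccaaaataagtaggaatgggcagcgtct
Dll4: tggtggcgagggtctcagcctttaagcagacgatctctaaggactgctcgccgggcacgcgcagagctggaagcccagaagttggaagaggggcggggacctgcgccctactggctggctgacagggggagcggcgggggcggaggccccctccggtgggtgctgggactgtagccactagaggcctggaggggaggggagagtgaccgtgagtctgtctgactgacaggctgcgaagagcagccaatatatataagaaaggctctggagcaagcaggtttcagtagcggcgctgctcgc
Flt1: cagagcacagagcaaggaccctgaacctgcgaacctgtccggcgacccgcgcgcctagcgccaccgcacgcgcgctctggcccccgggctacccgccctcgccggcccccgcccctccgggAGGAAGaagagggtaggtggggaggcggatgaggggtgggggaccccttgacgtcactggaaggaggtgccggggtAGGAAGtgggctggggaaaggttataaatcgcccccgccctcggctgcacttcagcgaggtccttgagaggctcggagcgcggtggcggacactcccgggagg
Flt4: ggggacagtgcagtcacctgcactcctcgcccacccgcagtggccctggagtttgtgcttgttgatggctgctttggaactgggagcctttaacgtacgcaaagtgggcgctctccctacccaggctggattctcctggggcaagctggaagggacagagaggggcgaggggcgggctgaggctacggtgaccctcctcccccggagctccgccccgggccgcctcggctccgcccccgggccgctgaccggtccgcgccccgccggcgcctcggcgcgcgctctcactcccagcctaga
Emcn, higher in resistant tumours, held 2 matches, at -174 and -93 relative to the start, and Flt1, lower in resistant tumours, also held 2, at -129 and -53. Dll4 and Flt4 held 0 matches of this longer form. All 4 windows also hold the shorter letters GGAA at places that are not marked. The RefSeq table held 21 windows for 17 of the 34 members, and 11 of these windows (52.4%) held the motif on either strand, against 35.4% of all 32851 windows of the same length. A forkhead core, TAAACA or TGTTTA, was in 14.3% of the member windows and 13.4% of all windows, and a SOX core, ACAATG or CATTGT, in 4.76% and 12.6%. None of the 3 motifs contains another, and a match is a description of the letters only.

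The first comparison sets Res+IgG against Sen+IgG, that is, the lines without PD-1 blockade. Most endothelial genes had a higher mean in resistant tumours, and few passed the test: 32 of 34 had a difference above 0, against 60.9% of all genes, and their median difference was 0.62, against 0.07 over all genes. The called members were 7, all higher (20.6%), against 8.93% of all genes called higher, and 0 members were called lower, against 7.31% of all genes. The groups did not overlap for 27 members that were higher (23.6% of all genes) and for 1, Flt4, that was lower (15.2% of all genes). Without both arrays that stand apart, 13 members were called higher, against 10.9% of all genes, and the median was 0.55. Leaving out any 1 of the 6 arrays compared left between 1 and 4 members called, with 1 left without Sen+IgG_1.

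Among the called members, Emcn encodes endomucin, a mucin of capillary and venous endothelium. Its level was 7.28, 7.15 and 7.91 in Res+IgG, against 5.49, 5.98 and 6.11 in Sen+IgG. All resistant arrays lay more than 1 log2 unit above the highest parental array. The difference was 1.59 (SE 0.37, adjusted p = 0.0161), a 3.0-fold higher level. This call was lost in 2 of 6 fits without 1 array (adjusted p up to 0.0543).

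Aplnr, the apelin receptor, had levels of 8.34, 8.09 and 9.04 in Res+IgG, against 6.51, 7.13 and 7.18 in Sen+IgG. The groups did not overlap, and the difference was 1.55 (SE 0.36, adjusted p = 0.0159). A second probe set of the gene gave 0.84, also without overlap. The call was lost in 1 of 6 fits without 1 array, that without Sen+IgG_1 (adjusted p = 0.0543). The ligand gene Apln did not follow: it had 6.47, 6.56 and 6.73 in Res+IgG, against 6.31, 6.54 and 6.49 in Sen+IgG, with overlapping groups and a difference of 0.14 (SE 0.17, adjusted p = 0.594).

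Sox18 and Sox17 encode related transcription factors of vascular development. Sox18 had 6.41, 6.39 and 7.10 in Res+IgG, against 5.28, 5.72 and 5.61 in Sen+IgG (1.10, SE 0.27, adjusted p = 0.0221). Sox17, linked to arterial identity, had 5.28, 5.52 and 5.40 in Res+IgG, against 4.88, 4.97 and 5.24 in Sen+IgG (0.37, SE 0.11, adjusted p = 0.0392). Both pairs of groups were apart, Sox17 only narrowly, and Sox17 lost its call without the arrays that stand apart (adjusted p = 0.0896). In fits without 1 array, Sox17 lost its call in 5 of 6 (adjusted p up to 0.131) and Sox18 in 3 of 6 (up to 0.0713). The other transcription factors, Erg and Sox7, were not called (differences of 0.45 and 0.34).

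Dll4, the Notch ligand of tip and arterial cells, had 5.15, 5.40 and 5.18 in Res+IgG, against 4.87, 4.57 and 4.66 in Sen+IgG, with no overlap (0.54, SE 0.14, adjusted p = 0.0244). This call was lost in 3 of 6 fits without 1 array (adjusted p up to 0.093). A second, dimmer probe set of Dll4 gave 0.29, with overlapping groups. The tip cell gene Esm1, which encodes the secreted proteoglycan endocan, ranged more widely and was not called (0.82, SE 0.39, adjusted p = 0.175). Its highest level, 5.94, was on Res+IgG_3.

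Tie1, the orphan receptor that modulates Tie2 signalling, had 4.82, 4.81 and 5.43 in Res+IgG, against 3.89, 4.22 and 4.15 in Sen+IgG (0.93, SE 0.28, adjusted p = 0.0439). The groups were apart, yet the call was lost without any 1 of the 6 arrays compared (adjusted p up to 0.127). The remaining genes of this system, Tek (0.86), Ptprb (0.70), the phosphatase that acts on Tie2, and Angpt2 (0.55), an angiopoietin made by endothelium, were not called, with adjusted p of 0.062, 0.0506 and 0.175.

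Cd34, a surface sialomucin of vessels and blood progenitors, had 7.63, 7.98 and 8.20 in Res+IgG, against 6.11, 7.30 and 6.93 in Sen+IgG (1.16, SE 0.34, adjusted p = 0.0395). The call was lost in 5 of 6 fits without 1 array (adjusted p up to 0.116). The lowest value was that of Sen+IgG_1, and without it and Sen+PD1_3 the difference was 0.82 (adjusted p = 0.0203). Cdh5 had 6.23, 6.02 and 7.11 in Res+IgG, against 4.95, 5.71 and 5.47 in Sen+IgG, which missed the threshold (1.08, SE 0.34, adjusted p = 0.0533) although the groups did not overlap. Pecam1, the endothelial adhesion molecule CD31, which platelets and leukocytes also carry, had 5.81, 5.92 and 6.33 in Res+IgG, against 4.97, 5.67 and 5.73 in Sen+IgG. Its groups were apart too, with a difference of 0.56 (SE 0.33, adjusted p = 0.261). The other 7 junction and surface genes had differences between 0.54 for Eng and 0.98 for Icam2, and none was called.

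The 8 genes of vessel function were all above 0 and none was called: the differences ran from 0.39 for Vwf, which tethers platelets and carries a clotting factor, to 1.18 for Plvap, which forms the diaphragms of fenestrated vessels. Among the VEGF receptors, Kdr, the main signalling receptor for VEGF-A, had 6.27, 5.96 and 6.66 in Res+IgG, against 5.69, 5.90 and 5.75 in Sen+IgG (0.52, SE 0.26, adjusted p = 0.196), with groups barely apart. Flt1 and Flt4 were the 2 members with differences below 0 (-0.21 and -0.62), and neither was called.

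**Figure D2:**
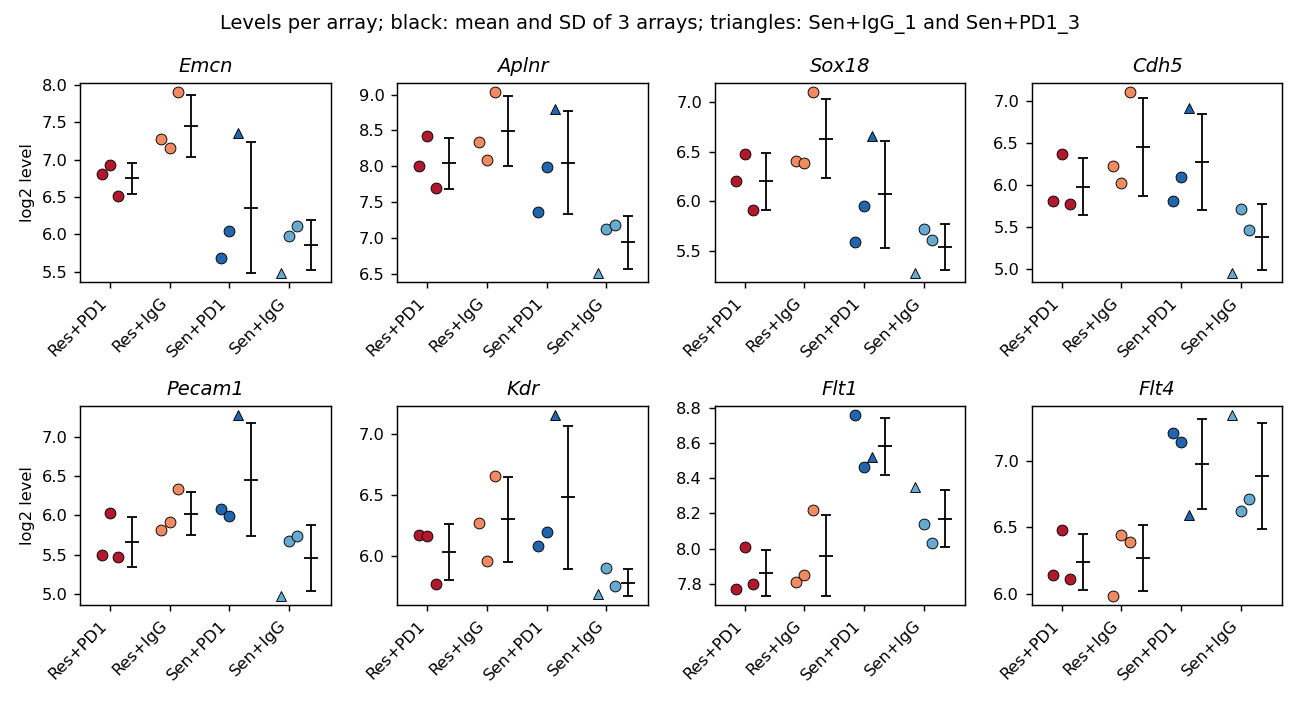
Levels (log2) of 8 members on each array in Res+PD1, Res+IgG, Sen+PD1 and Sen+IgG, with the mean and SD of 3 arrays in black and triangles for Sen+IgG_1 and Sen+PD1_3. Emcn, Aplnr, Sox18, Cdh5, Pecam1 and Kdr are lowest in Sen+IgG by group mean, whereas Flt1 and Flt4 are lower in both resistant groups than in both parental groups by group mean.

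The lines under treatment, Res+PD1 against Sen+PD1, were measured on arrays not used in the IgG comparison. Here the members as a list were not higher: 27 of 34 had a difference below 0, against 40.5% of all genes, with a median of -0.25, against 0.07 over all genes. No member was called higher (0 of 34), against 21.6% of all genes, and 2 were called lower (5.88%), against 11.9% of all genes. The direction of the list rested on Sen+PD1_3: without both arrays that stand apart, 19 members were above 0, against 60.6% of all genes, and the median was 0.03. In that fit Emcn alone was called higher (0.89, adjusted p = 0.0148), against 19.7% of all genes, and Flt1 and Flt4 remained called lower, against 11.8%. Leaving out 1 array of the 6 gave between 1 and 3 calls.

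Flt1 encodes VEGF receptor 1, which binds VEGF-A, VEGF-B and PlGF and is also made by monocytes and macrophages. Its level was 7.77, 8.01 and 7.80 in Res+PD1, against 8.76, 8.46 and 8.52 in Sen+PD1. All resistant arrays were below all parental arrays (difference -0.72, SE 0.13, adjusted p = 0.00236). The call held without any 1 array and without both arrays that stand apart (-0.75, adjusted p = 0.00502). The 3 further probe sets of Flt1 gave -0.77, -0.79 and -0.40, each without overlap.

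Flt4 encodes VEGF receptor 3, the receptor for VEGF-C, found on lymphatic endothelium and on sprouting blood vessels. It had 6.14, 6.48 and 6.11 in Res+PD1, against 7.21, 7.14 and 6.59 in Sen+PD1. The groups were apart, by little between the second resistant array and Sen+PD1_3 (difference -0.74, SE 0.22, adjusted p = 0.0263). Leaving out 1 array ended the call in 4 of 6 cases, with adjusted p up to 0.0808, and leaving out both arrays that stand apart kept it (-0.93, adjusted p = 0.00252). A second, dimmer probe set of Flt4 gave -0.03 with overlapping groups, so the lower level was seen on 1 of 2 probe sets. Flt4 under IgG had 5.98, 6.44 and 6.39 in Res+IgG, against 7.35, 6.62 and 6.71 in Sen+IgG, also without overlap (-0.62, SE 0.22, adjusted p = 0.0786), and the difference was -0.39 (adjusted p = 0.106) without Sen+IgG_1 and Sen+PD1_3. The interaction of line and antibody for Flt4 was -0.11 (SE 0.31, adjusted p = 0.876), and -0.54 (adjusted p = 0.332) without both arrays that stand apart.

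The remaining endothelial markers spread widely under anti-PD-1. Kdr had 6.17, 6.16 and 5.77 in Res+PD1, against 6.08, 6.20 and 7.16 in Sen+PD1 (-0.45, SE 0.26, adjusted p = 0.215). Cdh5 had 5.81, 6.37 and 5.77 in Res+PD1, against 5.81, 6.10 and 6.91 in Sen+PD1 (-0.29, SE 0.34, adjusted p = 0.544). In both, Sen+PD1_3 alone lay above the other 5 arrays. A second, dimmer probe set of Cdh5 (mean of 4.05, against 6.02) gave 0.42, with every resistant array above every parental array. Under IgG that probe set gave 0.56, also without overlap.

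Pecam1 had 5.49, 6.03 and 5.47 in Res+PD1, against 6.08, 5.99 and 7.28 in Sen+PD1 (-0.79, SE 0.33, adjusted p = 0.09), with overlap. Vwf was the only other member whose groups did not overlap, and it was not called (-0.92, SE 0.34, adjusted p = 0.0577). The count of members without overlap was 3, all lower (8.82%), against 15.8% of all genes. Aplnr had 8.01, 8.42 and 7.70 in Res+PD1, against 7.36, 7.99 and 8.80 in Sen+PD1, a difference of -0.01 (SE 0.36, adjusted p = 0.99). Emcn had 6.81, 6.93 and 6.52 in Res+PD1, against 5.69, 6.04 and 7.36 in Sen+PD1: the first and second parental arrays were below all resistant arrays and Sen+PD1_3 was above them (0.39, SE 0.37, adjusted p = 0.447).

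**Figure D3:**
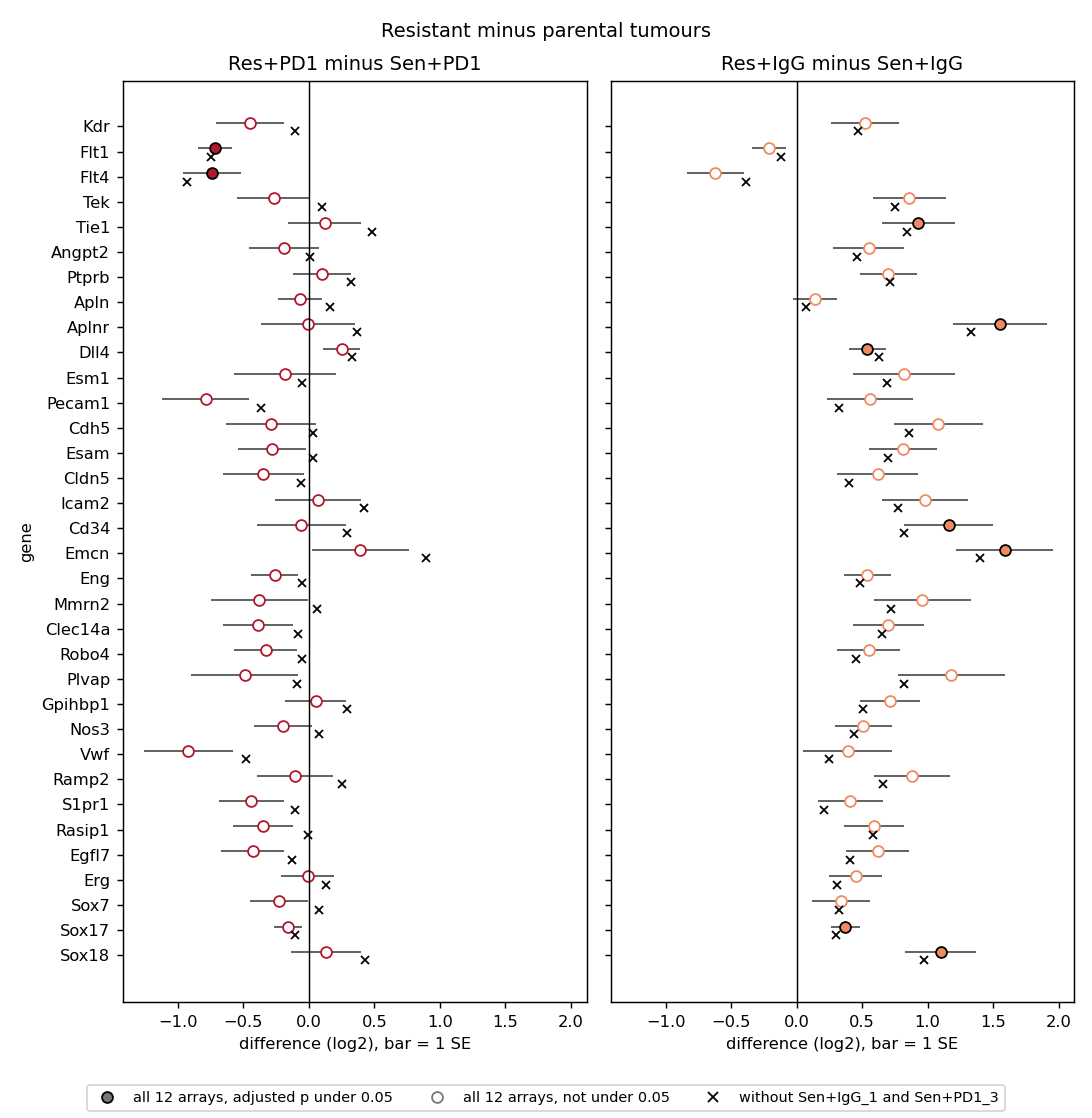
Resistant minus parental difference (log2, bars of 1 SE) of each of the 34 genes under anti-PD-1 on the left and under IgG on the right; filled circles passed an adjusted p of 0.05, open circles did not, and crosses are the values without Sen+IgG_1 and Sen+PD1_3. Under IgG 32 of 34 genes lie above 0, under anti-PD-1 7 of 34 do, and Flt1 and Flt4 lie below 0 in both panels.

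Parental tumours given anti-PD-1 were set against those given IgG to see the response of the sensitive line. Of the 34 members, 33 had a difference above 0, against 48.5% of all genes, with a median of 0.53, against -0.01 over all genes. No member was called (0 of 34) by limma, against 1.23% of all genes called higher and 2.27% called lower, while 20 had an unadjusted p under 0.05, against 21.9% of all genes. The groups did not overlap for 19 members (55.9%), all higher, against 9.12% of all genes. The largest differences were those of Plvap (1.30, SE 0.41, adjusted p = 0.1), Aplnr (1.11, SE 0.36, adjusted p = 0.108) and Mmrn2, a matrix protein of vessels (1.01, SE 0.37, adjusted p = 0.145). Without the first Sen+PD1 array 2 members were called. The smallest adjusted p was 0.062, for Egfl7, a secreted endothelial protein (0.92, SE 0.24).

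These values rested in large part on the 2 arrays that stand apart, 1 in each group. Without them 28 members were above 0, against 49.4% of all genes, the median was 0.19 and the differences ran from -0.32 to 0.55. Plvap then had 0.55, Aplnr 0.52 and Egfl7 0.41. Flt1 was among the members that did not shrink: it was 0.41 (SE 0.13, adjusted p = 0.114) on all arrays and 0.53 (adjusted p = 0.138) without the pair. Apln was the member below 0 (-0.03, SE 0.17, adjusted p = 0.951), with 6.25, 6.14 and 6.87 in Sen+PD1, against 6.31, 6.54 and 6.49 in Sen+IgG.

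Resistant tumours given anti-PD-1 were likewise set against resistant tumours given IgG. All 34 members had a difference below 0, against 40.8% of all genes, with a median of -0.31, against 0.03 over all genes, and a range from -0.82 for Esm1 to -0.03 for Flt4. No member was called by limma (0 of 34), and 0% of all genes were called in either direction. No member reached an unadjusted p under 0.05 either (0 of 34), against 4.76% of all genes. Neither array that stands apart is in these groups, but a fit without them, which changes the shared spread, brought 8 members under an unadjusted p of 0.05, against 8.69% of all genes, and gave adjusted p-values of at least 0.531. The groups did not overlap for 5 members (14.7%), all lower, against 5.39% of all genes: Emcn, Apln, Sox17, Eng and S1pr1. Emcn, for example, had 6.81, 6.93 and 6.52 in Res+PD1, against 7.28, 7.15 and 7.91 in Res+IgG (-0.69, SE 0.37, adjusted p = 0.896). Apln had 6.43, 6.43 and 6.19 in Res+PD1, against 6.47, 6.56 and 6.73 in Res+IgG (-0.24, SE 0.17, adjusted p = 0.896), groups that were apart by a small margin.

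**Figure D4:**
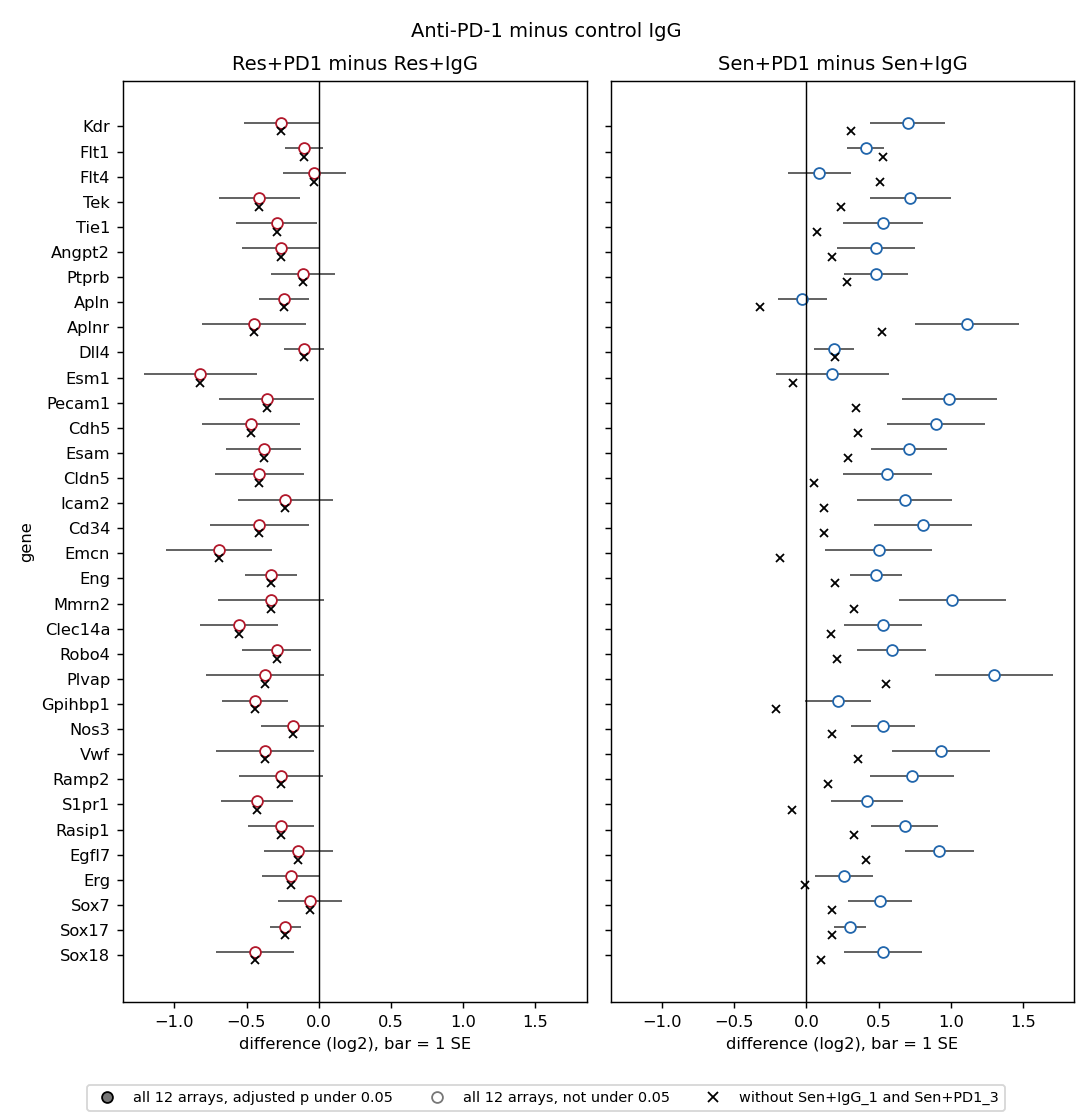
Anti-PD-1 minus IgG difference (log2, bars of 1 SE) of each of the 34 genes in resistant tumours on the left and in parental tumours on the right, with crosses for the values without Sen+IgG_1 and Sen+PD1_3; open circles did not pass an adjusted p of 0.05, and no gene passed. All 34 genes lie below 0 in resistant tumours and 33 lie above 0 in parental tumours, where the crosses sit closer to 0 for most genes (median 0.19 against 0.53).

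The interaction asks whether the antibody difference was the same in both lines, and subtracts the parental from the resistant difference. It was below 0 for all 34 members, against 45.2% of all genes, with a median of -0.95, against 0.03 over all genes. No member was called (0 of 34), as 0% of all genes were called, and 23 members had an unadjusted p under 0.05, against 17.5% of all genes. The smallest adjusted p among the members was 0.167, for Sox17 (-0.53, SE 0.15). The largest interactions were those of Plvap (-1.67, SE 0.58, adjusted p = 0.197), Aplnr (-1.56, SE 0.51, adjusted p = 0.191) and Cdh5 (-1.37, SE 0.48, adjusted p = 0.201). The second, dimmer probe set of Cdh5 gave antibody differences of -0.13 in resistant and 0.02 in parental tumours. Those of the probe set used were -0.47 and 0.90, so the large Cdh5 interaction was seen on 1 of 2 probe sets. Without both arrays that stand apart the median was -0.53 and 33 members were below 0, against 47.4% of all genes, while 10 had an unadjusted p under 0.05, against 13.6%. This contrast is built from the same 12 arrays as the comparisons above and adds no independent samples. The members rise and fall together across arrays, so the counts of members in 1 direction are not counts of separate observations.

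The ligands that act on these receptors are described from a context list of 14 ligands and inhibitors, of which 13 were tested and Fgf2 was too dim. Under anti-PD-1, 1 was called higher and 5 lower in resistant tumours, and under IgG 3 were higher and 2 lower. The shares of all genes called were 21.6% higher and 11.9% lower under anti-PD-1, and 8.93% and 7.31% under IgG. In the fit without both arrays that stand apart, the list had 1 higher and 5 lower under anti-PD-1, and 2 higher and 2 lower under IgG. The shares of all genes in that fit were 19.7% higher and 11.8% lower under anti-PD-1, and 10.9% higher under IgG. The share lower under IgG there is not given here. Vegfc, the ligand of Flt4, had 6.35, 6.15 and 6.08 in Res+PD1, against 7.65, 7.34 and 7.37 in Sen+PD1. Under IgG it had 6.30, 6.08 and 6.37 in Res+IgG, against 7.17, 7.02 and 6.88 in Sen+IgG. Every resistant array lay below every parental array, and the differences were -1.26 (SE 0.12, adjusted p = 9.78e-05) under anti-PD-1 and -0.77 (SE 0.12, adjusted p = 0.00234) under IgG. Of this ligand and receptor, Vegfc was thus called lower under both antibodies and Flt4 under anti-PD-1.

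Vegfa, the principal attractant of vessels, had 8.06, 8.12 and 8.02 in Res+PD1, against 8.74, 8.74 and 9.19 in Sen+PD1 (-0.82, SE 0.16, adjusted p = 0.00327). It had 8.31, 8.13 and 8.56 in Res+IgG, against 8.88, 8.41 and 8.88 in Sen+IgG, where the groups overlapped (-0.39, adjusted p = 0.124). The average over both antibodies was -0.61 (adjusted p = 0.0019). Under IgG, where most members had a higher mean in resistant tumours, Vegfa had a lower one.

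Pdgfb, the factor with which endothelium recruits pericytes and which tumour cells can also make, was lower in resistant tumours under anti-PD-1 (-1.11, SE 0.16, adjusted p = 0.000526) and under IgG (-0.78, SE 0.16, adjusted p = 0.00816). Vegfb, a ligand of Flt1, was higher in resistant tumours, by 0.36 under anti-PD-1 (adjusted p = 0.015) and 0.37 under IgG (adjusted p = 0.0274). The second was not called without the arrays that stand apart (adjusted p = 0.059). Fits without 1 array ended the Vegfb call in 2 of 6 cases under anti-PD-1 (adjusted p up to 0.0632). Under IgG they ended it in 4 of 6 (adjusted p up to 0.093). Angptl4, an angiopoietin-like protein that inhibits lipoprotein lipase, was higher under IgG (0.74, SE 0.15, adjusted p = 0.0103) and not called under anti-PD-1 (-0.20, adjusted p = 0.355). The calls not yet named were Pgf (-1.12) and Thbs1 (-1.07), lower under anti-PD-1, and Cxcl12 (2.31), higher under IgG; these 3 were picked after their values were seen. Leaving out both arrays that stand apart gave Pgf -0.63, Thbs1 -0.85 and Cxcl12 1.73, all still called, while fits without 1 array ended the call of Pgf in 2 of 6 cases and that of Cxcl12 in 3 of 6.

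**Figure D5:**
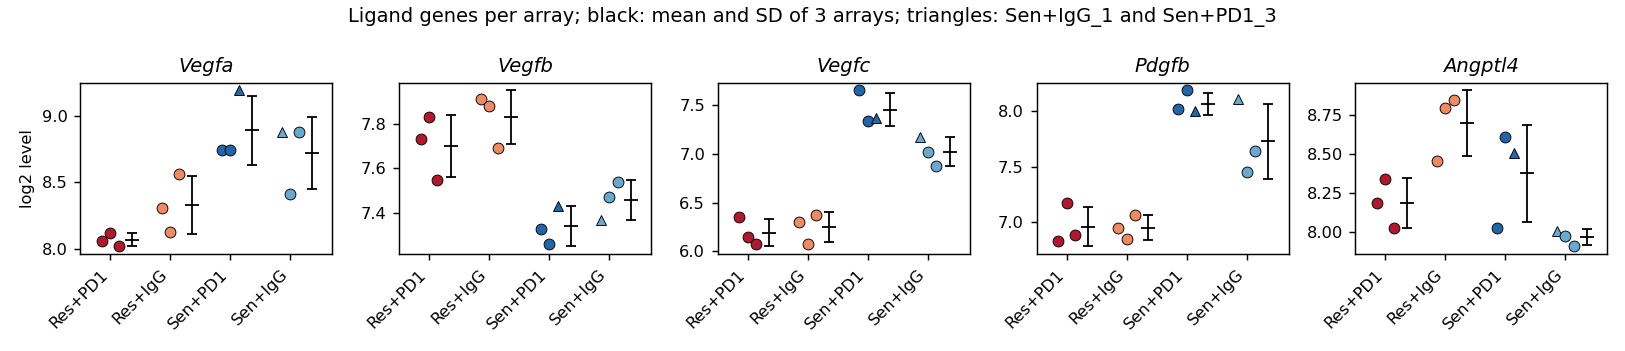
Levels (log2) of 5 ligand genes on each array in Res+PD1, Res+IgG, Sen+PD1 and Sen+IgG, with the mean and SD of 3 arrays in black and triangles for Sen+IgG_1 and Sen+PD1_3. Vegfc and Pdgfb lie lower and Vegfb higher on every resistant array than on every parental array, and Vegfa is lowest in Res+PD1 (8.07 ± 0.05, SD, n = 3).

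Other lists show what else of the vessel wall moved. Of 19 tested further endothelial genes, 4 were called higher and 0 lower under IgG, led by Gja4, an arterial gap junction protein (0.77, adjusted p = 0.0115), the Notch target Hey1 (0.68, adjusted p = 0.0166) and Calcrl, the partner of Ramp2 in the adrenomedullin receptor (0.99, adjusted p = 0.0247). Under anti-PD-1, 1 was higher and 4 lower, led by Ecscr (-1.47, adjusted p = 0.00393), Epas1, a hypoxia-inducible factor (-1.20, adjusted p = 0.00666), and Notch4 (-0.76, adjusted p = 0.00763). In fits without 1 array, Hey1 lost its call under IgG in 4 of 6 (adjusted p up to 0.0631). Calcrl lost its call there in 3 of 6 (adjusted p up to 0.0744), while Gja4, Ecscr, Epas1 and Notch4 kept theirs. Of all genes, 8.93% were called higher and 7.31% lower under IgG, and 21.6% higher and 11.9% lower under anti-PD-1. In the fit without both arrays that stand apart, the list had 6 genes higher and 1 lower under IgG, and 2 higher and 5 lower under anti-PD-1. Of all genes, 10.9% were higher under IgG in that fit, and 19.7% were higher and 11.8% lower under anti-PD-1. The share lower under IgG there is not given here.

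Of 3 tested lymphatic genes, Lyve1 binds hyaluronan on lymphatic vessels and some macrophages. It was higher in resistant tumours under anti-PD-1 (1.40, SE 0.39, adjusted p = 0.0183) and IgG (2.39, SE 0.39, adjusted p = 0.00282), the opposite direction to Flt4. The Lyve1 call under anti-PD-1 was lost in 2 of 6 fits without 1 array (adjusted p up to 0.0691). Pdpn and Reln were not called, with differences of -0.85 and -0.09 under anti-PD-1 and 0.94 and 0.32 under IgG. Prox1, the defining factor of lymphatic endothelium, was below the dim limit, so lymphatic cells cannot be identified from it here. Among 5 genes of activated endothelium, the leukocyte adhesion molecule Vcam1 was lower in resistant tumours under anti-PD-1 (-0.89, adjusted p = 0.0125) and IgG (-1.31, adjusted p = 0.00413). Icam1 was lower under anti-PD-1 (-0.81, adjusted p = 0.0194, a call lost in 3 of 6 fits without 1 array) and not called under IgG (-0.69, adjusted p = 0.062), where it was called without both arrays that stand apart (-0.92, adjusted p = 0.0153). Neither Vcam1 nor Icam1 is restricted to endothelium. The other 3 genes, Selp, Sele and Ackr1, had a higher mean in resistant tumours under IgG, and none of them was called. Selp had a mean of 6.35 in Res+IgG, against 5.29 in Sen+IgG. Under anti-PD-1 all 5 genes were below 0. Without both arrays that stand apart, 1 of the list was called higher under IgG, against 10.9% of all genes. In that fit 3 of the 5 were above 0 under anti-PD-1.

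Of 11 genes of pericytes and vascular muscle, the cells that wrap vessels, 2 were called higher under IgG, Kcnj8 (0.90, adjusted p = 0.0344) and Notch3 (0.81, adjusted p = 0.0483). Both calls were lost without any 1 of the 6 arrays compared (adjusted p up to 0.103 and 0.12). Without both arrays that stand apart, 4 of the list were called higher under IgG, against 10.9% of all genes. Under anti-PD-1 Cspg4, the pericyte proteoglycan NG2, was higher (0.62, adjusted p = 0.0128) and Pdgfrb, the receptor of PDGF-B, lower (-0.67, adjusted p = 0.0425). Cspg4 kept its call without any 1 array and without both that stand apart (0.73), whereas Pdgfrb lost it in 5 of 6 fits without 1 array and without both (-0.49, adjusted p = 0.148). The shares of all genes called higher were 21.6% under anti-PD-1 and 8.93% under IgG, and 11.9% and 7.31% were called lower. The mean level of the list was 6.02 to 6.23 in Res+PD1, 6.40 to 6.88 in Res+IgG, 6.07 to 6.84 in Sen+PD1 and 6.08 to 6.17 in Sen+IgG.

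Markers of other tissue in the tumour samples moved on some of the same arrays. For the counts below, the shares of all genes called were 21.6% higher and 11.9% lower under anti-PD-1, and 8.93% and 7.31% under IgG. Without both arrays that stand apart they were 19.7% higher and 11.8% lower under anti-PD-1, and 10.9% higher under IgG. The share called lower under IgG in that fit is not given here. The mean level of 6 fibroblast genes was 9.55 to 10.06 in Res+PD1, 10.02 to 10.70 in Res+IgG, 9.37 to 11.09 in Sen+PD1 and 9.05 to 10.03 in Sen+IgG, and none was called between the lines under either antibody (1 higher under IgG without both arrays that stand apart). That of 6 skeletal muscle genes was 6.79 to 10.28, 10.53 to 11.28, 10.31 to 12.29 and 7.24 to 11.80 in the same 4 groups, again with 0 called. Of 5 tested adipocyte genes, 1, Adipoq, was called higher under IgG (3.99, adjusted p = 0.0343), a call lost without both arrays that stand apart (3.43, adjusted p = 0.078) and in 4 of 6 fits without 1 array. The adipocyte list's mean was 4.19 to 4.99 in Res+PD1, 4.95 to 7.80 in Res+IgG, 4.38 to 5.76 in Sen+PD1 and 3.95 to 4.59 in Sen+IgG. Of 8 leukocyte genes, 3 were lower in resistant tumours under anti-PD-1, Csf1r (-1.05), Ptprc (-1.35) and Cd52 (-1.34), and none was called under IgG. Without both arrays that stand apart, Csf1r alone kept its call under anti-PD-1 (-0.69, adjusted p = 0.0335), and Cd52 was called lower under IgG (-1.48, adjusted p = 0.0381). Their mean was 7.16 to 7.72 in Res+PD1, 7.45 to 7.93 in Res+IgG, 7.48 to 8.56 in Sen+PD1 and 7.38 to 8.10 in Sen+IgG. Of 5 platelet genes, Ppbp and Pf4 were higher under IgG (2.24 and 1.38), and Ppbp was higher under anti-PD-1 (0.63). Itga2b, Gp9 and Gp1bb were not called under either antibody (Gp1bb 0.30, adjusted p = 0.125, under IgG). In fits without 1 array, Ppbp lost its call under anti-PD-1 in 4 of 6 (adjusted p up to 0.0681). Pf4 lost its call under IgG in 2 of 6 (adjusted p up to 0.0661). Of 5 epithelial genes, Krt18 was lower in resistant tumours under both antibodies (-0.36 under anti-PD-1 and -0.38 under IgG), Epcam was lower under IgG (-1.54) and Krt19 was higher under anti-PD-1 (0.55). Without Sen+IgG_1 and Sen+PD1_3 Epcam was called lower under IgG (-0.99, adjusted p = 0.00834) and under anti-PD-1 (-0.93, adjusted p = 0.00562). In that fit Krt19 under anti-PD-1 was not called (0.40, adjusted p = 0.0645), while 4 of the 5 genes were called lower there, against 11.8% of all genes. Epcam under IgG and Krt19 under anti-PD-1 each lost their call in 5 of 6 fits without 1 array. The part of these tissues in the levels of the endothelial genes was not tested.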

How the data were processed

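Per the labels' protocols, biotin-labelled copies of total tumour RNA were hybridized to Affymetrix arrays of mouse genes. The authors' deposited table gives a log2 level for each probe set on each array, between 1.62 and 13.88. That the scale is log2 was read from the values. How the authors corrected background, normalized and summarized probes is not given in the sources used. Array medians lay between 4.75 and 4.89, and no 2 arrays were identical (0 pairs, correlations 0.959 to 0.997). Arrays give no read depth.

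Of 45101 probe sets, 64 were controls, 34945 carried 1 gene symbol, 932 several and 9160 none, and only those with 1 symbol were used. A gene was represented by its brightest probe set (mean of 12 arrays), and genes above 3.32 (the 25th percentile of all values) on at least 3 arrays were tested. The sample titles give line and antibody. The fit used limma (version 3.58.1, R 4.3.3) and gave each group its own mean, with 8 residual and 2.98 prior degrees of freedom, two-sided p-values and Benjamini-Hochberg adjustment within a comparison. The fit was tested on simulated data. Comparisons that share a group share its arrays.

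The 34 members, the role groups and the context lists were chosen with earlier results of these data known. Values on every array are given for members called in a comparison of 2 groups that do not overlap there, and for Kdr, Cdh5, Pecam1, Apln and Aplnr. The context genes named were taken from the 3 with the smallest p in a list and comparison, plus Vegfa; Pgf, Thbs1 and Cxcl12 were added after their values were seen. Promoter sequences are from RefSeq, assembly GRCm38.p6. The alternatives were other choices of probe set, filter, scaling and model, a replicate block and the omission of arrays.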

Additional observations from a re-analysis of the deposited data

Results flagged for a closer look

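Eng, which encodes endoglin, a co-receptor for TGF-beta family ligands on endothelium, had differences of opposite sign with anti-PD-1 in the 2 lines. In resistant tumours it had 7.03, 7.16 and 6.85 in Res+PD1, against 7.24, 7.22 and 7.57 in Res+IgG, with every anti-PD-1 array lower (-0.33). In parental tumours it had 6.93, 7.19 and 7.71 in Sen+PD1, against 6.68, 6.82 and 6.90 in Sen+IgG, with every anti-PD-1 array higher (0.48). Without Sen+IgG_1 and Sen+PD1_3 the parental difference was 0.20. A second probe set of Eng gave -0.34 in resistant tumours, without overlap, and 0.52 in parental tumours, with overlapping groups. The test of the difference itself gave -0.81 (SE 0.25), with an unadjusted p of 0.00844 and an adjusted p of 0.18 by limma over all genes, which did not pass. Without Sen+IgG_1 and Sen+PD1_3 the interaction was -0.53 (adjusted p = 0.284). Neither antibody difference of Eng was called, and most members shared these directions. All 34 members were below 0 in resistant tumours (40.8% of all genes) and 33 above 0 in parental tumours (48.5% of all genes).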

How the results depend on the processing

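The number of members called changed more than the direction of their differences. Between the lines under IgG, 7 were called on all arrays, 13 without Sen+IgG_1 and Sen+PD1_3, 16 with the replicate number as a block, 19 with array weights, 11 with the most variable probe set of a gene, 15 with each array centred on its median, 14 with only the groups compared in the fit, and between 1 and 4 with 1 array left out. Under anti-PD-1, 2 were called on all arrays, 4 with the block, 4 with the most variable probe set, and between 1 and 3 with 1 array left out. In parental tumours the antibody comparison's 0 became 3 with the block (Egfl7, Plvap and Vwf) and ran between 0 and 2 with 1 array left out. For the mean over both antibodies 6 became 14 without Sen+IgG_1 and Sen+PD1_3, 10 with the block, 10 with array weights, 11 with each array centred, and between 4 and 16 with 1 array left out. Among the 19 members called with array weights between the lines under IgG, Flt4 was called lower and the others higher. The share of all genes called also changes with the fit. Under IgG, 8.93% were called higher on all arrays and 10.9% without Sen+IgG_1 and Sen+PD1_3. Such shares are not given here for the other settings, so the counts cannot be set against them. The cause of these shifts was not tested. The interaction and anti-PD-1 in resistant tumours gave 0 calls in each of these settings. The block fits were a check only: same-numbered arrays of different groups correlated between -0.208 and 0.636, 14 of 18 such pairs over 0.1, and 8 of 12 arrays correlated best with their own number.

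Under anti-PD-1 the median line difference of the members turned to 0.03 without Sen+PD1_3, with or without Sen+IgG_1, and ran between -0.41 and 0.03 with 1 array left out. Apln turned to 0.16 without both arrays, 0.10 with array weights, 0.04 with each array centred and, with 1 array left out, ran between -0.21 and 0.16. Aplnr turned to 0.37, 0.18 and 0.10 in the same settings and ran between -0.35 and 0.37. Cdh5 turned to 0.03 without both arrays and 0.06 with the mean of all probe sets, and ran between -0.52 and 0.03. In the antibody comparison of parental tumours Apln ran between -0.25 and 0.11 with 1 array left out. None of these values passed an adjusted p of 0.05. Few arrays and a shared spread limit all calls, and probe sets give no depth.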
